A study of Rattus norvegicus with 6 samples.

Results

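The comparison described here set 2 Affymetrix Rat230_2 arrays of liver RNA from rats given tienilic acid (TA), each from 1 animal, against 1 vehicle array of the same time, 3 of the 6 arrays of the series. The arrays were chosen by their labels: vehicle at 6 h, and the treated animals numbered 1 and 2 at 6 h. All animals were male Sprague Dawley rats of unstated age, fed standard chow without restriction. The treated animals received 1 oral dose of TA at 100 mg/kg, dissolved in sodium bicarbonate, and the vehicle animals received sodium bicarbonate alone. The vehicle array of 6 h held RNA pooled from 2 rats. A vehicle pool of 24 h, also from 2 rats, served as a second reference. Its rats had received vehicle at 0 and 16 h, so it differed from the treated animals in time and in the number of doses as well as in TA. The 2 arrays of TA at 24 h came from rats given 2 doses of TA at 100 mg/kg, the second at 16 h. They entered the test at 6 h only to estimate the spread between animals. Values are the deposited log2 values of single probe sets, differences are log2 differences, and each is the treated animal minus a pool.

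TA is a uricosuric diuretic that was withdrawn after cases of hepatitis. Liver cytochrome P450 enzymes oxidise its thiophene ring to a reactive species that binds protein. Cells answer electrophiles through Keap1, a sensor that normally sends the transcription factor Nrf2 (gene Nfe2l2) to the proteasome. When Keap1 cysteines are modified, Nrf2 escapes and raises genes for quinone and aldehyde reduction, glutathione and thioredoxin. The title of the series asks which genes respond early and whether danger signals, molecules of stressed or dying cells that alert immune cells, are among them.

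The 6 array medians lay between 3.27 and 3.31, and pairs of arrays correlated at 0.991 to 0.997 over all probe sets. The hepatocyte genes Alb (16.63 in the 6 h pool, 16.67 in animal 1 and 16.57 in animal 2), Apoa1, Ttr and Serpina1 were near the top of the scale, as the liver label states. Fluidics runs were inferred from the hybridisation times recorded in the array settings. By these times the vehicle pool of 6 h and animal 1 were in 1 run and the other 4 arrays in another on the same day. Against the pool of 6 h the difference of animal 1 is therefore the within-run value, and against the pool of 24 h that of animal 2. Both animals were set against the same pool, so the same sign in both is partly shared by construction. With so few arrays, their number limits the precision throughout.

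In limma's test across all probe sets, 0 of 18625 passed at an adjusted p of 0.05 (0.0% called). The smallest adjusted p was 0.64, and 1087 probe sets had an unadjusted p under 0.05, 295 of them higher with TA and 792 lower. With quantile normalization 478 were higher and 600 lower, so the lean to lower values depended on the scaling. The error pooled the spread of both pairs of TA animals, 6 h and 24 h, with 2 residual degrees of freedom, and the median standard error of a difference was 0.15. Each SE below comes from this pooled error and is not the spread of the treated animals of 6 h alone. No gene named below passed the test, and all that follows gives measured values. Of the probe sets, 43 (0.231%) were at least 2-fold above the vehicle pool of 6 h in both animals and 55 (0.295%) at least 2-fold below it. On 1 probe set for each of 10449 genes, 26 (0.249%) were above by that size and 24 (0.23%) below, and at any size 22.9% were above in both animals and 38.4% below, but 34.5% and 29.0% with quantile normalization, which turned the direction of the imbalance. For comparison, 200 genes in all differed by 2-fold between the treated animals, 100 (0.957%) each way, and the pool of 24 h was 2-fold above that of 6 h at 148 genes (1.42%) and below it at 164 (1.57%).

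**Figure D1:**
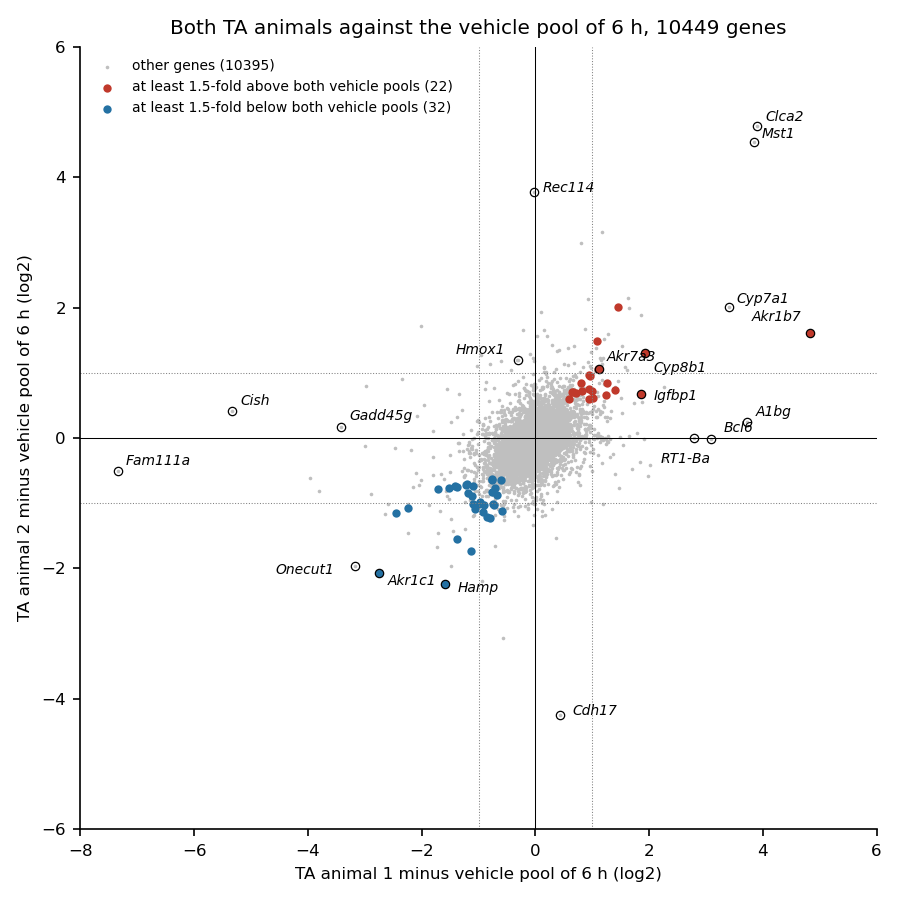
Log2 difference from the vehicle pool of 6 h in TA animal 1 (horizontal) and TA animal 2 (vertical) for 10449 genes. Coloured points are the 22 genes at least 1.5-fold above and the 32 at least 1.5-fold below both vehicle pools in both animals, circles mark the genes written beside them, and dotted lines mark 2-fold. Cyp8b1, Akr7a3 and Akr1b7 lie at the upper right and Akr1c1 and Hamp at the lower left, while Cish, Fam111a, A1bg and Cdh17 lie far from the pool in 1 animal.

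Many of the largest differences were also present between the 2 vehicle pools. Of the 26 higher genes, the pool of 24 h lay nearer to the TA mean than the pool of 6 h did at 18, and of the 24 lower genes at 14. Mst1, which encodes macrophage stimulating protein, was at 7.39 in the pool of 6 h, 11.23 and 11.92 in animals 1 and 2, and 11.02 in the pool of 24 h. Both animals were thus far above the first pool and only 0.21 to 0.91 above the second. Clca2 read 2.42 in the pool of 6 h, near the floor of the scale, 6.32 and 7.21 in the animals and 6.67 in the pool of 24 h, which lay between them. Cyp7a1, which catalyses the first and rate-limiting step from cholesterol to bile acids, was at 8.77, then 12.17 and 10.78, and at 11.98 in the pool of 24 h, again between the animals. Clock genes show how far the pools themselves were apart: Nr1d1 was at 7.51 in the pool of 6 h and 1.97 in that of 24 h, and Dbp at 8.51 and 4.09. Both treated animals lay nearer to the pool of 6 h, at 7.30 and 6.73 for Nr1d1 and 7.80 and 6.85 for Dbp.

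The genes beyond both pools were fewer. By at least 1.5-fold in both animals there were 22 above (0.211%) and 32 below (0.306%), and by at least 2-fold 3 above (0.0287%) and 4 below (0.0383%). The pairings that share no array set animal 1 against the pool of 6 h and animal 2 against that of 24 h, or the reverse. In the first, 134 genes were past 1.5-fold with the same sign and 112 with opposite signs, and in the second 106 and 100. Past that size, then, the same sign was only slightly more frequent than opposite signs once no vehicle array was shared. Opposite signs also arise where both animals lie between the pools. Rnf39, for example, was at 9.01 and 6.69 in the pools of 6 h and 24 h and 7.56 and 7.59 in the animals. The counts therefore do not measure disagreement between the animals alone.

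Above both pools, the 3 genes past 2-fold were Cyp8b1, Nceh1 and Akr7a3. Cyp8b1, the sterol 12-alpha-hydroxylase that sets the share of cholic acid among bile acids, read 11.26 and 10.42 in the pools of 6 h and 24 h, against 13.19 in animal 1 and 12.57 in animal 2. Both animals were above both pools, by a difference of 1.62 ± 0.46 (SE, n = 2 treated animals) from the pool of 6 h (limma, adjusted p = 0.83). Nceh1, a hydrolase of cholesterol esters, was at 7.49 and 7.43 in the pools and 8.58 and 8.98 in the animals, a difference of 1.29 ± 0.46. The pools were within 0.06 of each other here, so the choice of reference made little difference. Akr7a3, an aldehyde reductase known for reducing aflatoxin dialdehyde, had animals 0.06 apart at 12.28 and 12.22, against 11.17 and 10.30 in the pools.

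Further genes above both pools included binding proteins of insulin-like growth factors. Igfbp1, a fasting-responsive product of hepatocytes, was at 8.41 and 8.02 in the pools of 6 h and 24 h and at 10.26 and 9.08 in animals 1 and 2, so the animals were 1.17 apart. Igfbp2 was at 6.49 and 5.68 in the pools and at 7.88 and 7.23 in the animals. Akr1b7, an aldose reductase relative, was at 5.03 and 5.65 in the pools, 9.85 in animal 1 and 6.63 in animal 2, so the animals were 3.22 apart. The helicase Blm, at 5.18 and 4.95 in the pools, was at 6.11 and 6.15, with the animals almost equal. Hacl1, a peroxisomal lyase of 2-hydroxy fatty acids, was at 12.10 and 11.84 against 11.11 and 10.80. The exporter of glutathione conjugates Abcc1 was at 4.05 and 4.02 against 3.33 and 2.93, in the low part of the scale, and the mitochondrial iron importer Slc25a37 was at 7.49 and 7.15 against 6.55 and 6.18.

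Below both pools, the genes past 2-fold were Akr1c1, Hamp, Ncald and LOC102547700. Hamp, the iron hormone hepcidin, was at 12.28 and 12.05 in the pools of 6 h and 24 h and at 10.69 and 10.05 in the animals. The pools were close together and both animals well below them, with a difference of -1.91 ± 0.91 (SE, n = 2 treated animals) from the pool of 6 h (limma, adjusted p = 0.94). Akr1c1, an aldo-keto reductase, was at 11.23 and 11.04 in the pools and 8.49 and 9.17 in the animals, a difference of -2.41 ± 1.34. Animal 1 was the lower of the animals for Akr1c1 and animal 2 for Hamp. Both SEs also hold the spread of the TA animals of 24 h, at 11.07 and 12.95 for Hamp and 9.47 and 12.32 for Akr1c1. Ncald, the calcium sensor neurocalcin delta, was at 8.57 and 8.45 against 6.13 and 7.42.

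Several other genes below both pools had values close together in the animals. Coq10b, a coenzyme Q binding protein of mitochondria, was at 9.13 and 9.14 in the pools and 8.15 in both animals, a difference of -0.98 ± 0.09. Gnpnat1, an enzyme of hexosamine synthesis, was at 11.29 and 11.43 in the pools and 10.39 and 10.26 in the animals. Sltm was at 9.04 and 9.24 against 7.93 and 8.15, and its other probe sets had differences of -0.76 and -0.87 from the pool of 6 h. The other probe sets of Med13 and Pigp, also among these genes, had differences of 0.00 and -0.00, so 1 probe set carried each result. That of Pigp was near the floor, at 2.90 and 2.96 in the animals, where a difference is compressed. That of Med13 was low, at 3.87 and 4.12. Retsat, which saturates retinol, was at 12.97 and 12.33 in the pools and 11.60 and 11.42 in the animals, both lower.

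A further 4 genes were also below both pools, and of these Ppp1r3b was chosen after its values were seen. Angptl8, a feeding-induced inhibitor of lipoprotein lipase, was at 9.60 in the pool of 6 h, 11.72 in that of 24 h, and 8.68 and 8.47 in the animals, so the difference depended on the reference for its size but not for its sign. Ppp1r3b, which brings protein phosphatase 1 to glycogen, was at 11.27 and 12.22 in the pools against 9.56 and 10.48. The kinase Sgk1, a target of insulin signalling and of glucocorticoids, was at 9.84 and 10.30 against 8.32 and 9.08, and the sulfotransferase Sult1c2 at 7.23 and 6.92 against 4.99 and 6.16.

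**Figure D2:**
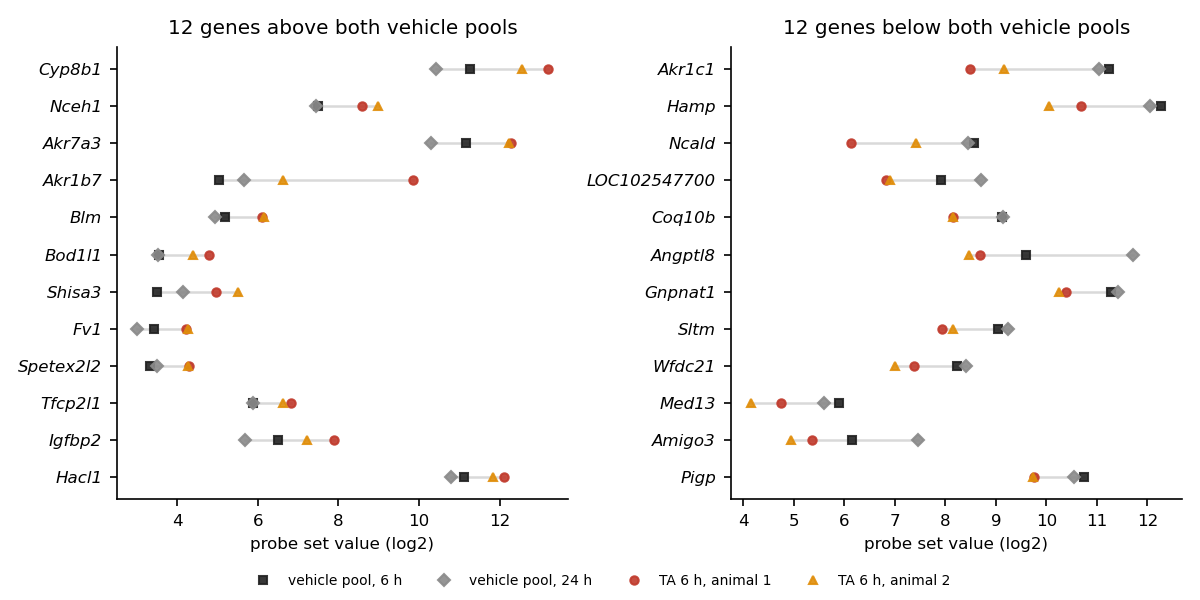
Log2 values on 4 arrays for the 12 genes with the largest differences above (left) and below (right) both vehicle pools in both TA animals. Squares and diamonds are the vehicle pools of 6 h and 24 h, circles and triangles TA animals 1 and 2. The animals stand apart from both pools in every row by construction of the choice, nearly coincide at Blm and Coq10b, and differ most at Akr1b7.

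Genes of the Nrf2 pathway were split by role into lists of enzymes, cofactor supply and regulators, 32 measured genes in all. Of these, 12 were above both pools in both animals and 3 below, shares of 37.5% and 9.38%. Over all 10449 genes the shares were 13.0% above and 20.4% below, or 18.4% and 16.1% with quantile normalization. Short stretches before the start site are printed for 3 members that hold the core of the antioxidant response element, to which Nrf2 binds, because their values differed: Txnrd1 and Ephx1 were higher in both animals than in both pools, and Gclm was not. The core searched was TGACNNNGC on either strand, read as GCNNNGTCA on the other, and capitals mark the match. The sequences are those of RefSeq on build GRCr8, 5′ to 3′ on the gene's strand, from 200 bases before the start to 1 base before it: Txnrd1 at chr7:22755905-22756104 (minus strand), Ephx1 at chr13:95263118-95263317 (minus strand) and Gclm at chr2:213031935-213032134 (plus strand).
Txnrd1: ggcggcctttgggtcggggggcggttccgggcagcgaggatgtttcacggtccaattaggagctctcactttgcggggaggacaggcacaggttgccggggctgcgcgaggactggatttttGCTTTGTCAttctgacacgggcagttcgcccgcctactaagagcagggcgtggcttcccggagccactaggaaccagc
Ephx1: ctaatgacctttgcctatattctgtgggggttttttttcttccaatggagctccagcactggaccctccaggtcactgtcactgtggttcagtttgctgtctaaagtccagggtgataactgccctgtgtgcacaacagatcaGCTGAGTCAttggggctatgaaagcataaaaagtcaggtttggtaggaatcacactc
Gclm: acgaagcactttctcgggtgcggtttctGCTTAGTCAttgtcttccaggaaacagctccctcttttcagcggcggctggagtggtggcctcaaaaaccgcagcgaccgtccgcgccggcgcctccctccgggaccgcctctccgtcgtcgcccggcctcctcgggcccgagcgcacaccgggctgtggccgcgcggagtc
The matches began 78, 57 and 172 bases before the start. In the 250 bases before the start, 7 of the 34 listed Nrf2 genes with a sequence held the core in any promoter. Counted as single promoters, 10.1% of 33469 held it. These units differ, so the shares are not directly comparable, and a match is no evidence of binding.

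Among enzymes of quinone and aldehyde detoxification, 6 of 10 measured genes were above both pools in both animals and 0 below both, with a median difference of 0.37 from the pool of 6 h, where all genes had -0.03. Ephx1, microsomal epoxide hydrolase, was at 13.62 and 13.23 in the pools of 6 h and 24 h and at 14.20 and 13.83 in animals 1 and 2. Ugdh, which makes the sugar donor of glucuronidation, was at 12.19 and 12.14 in the pools and at 12.52 and 12.57 in the animals, close to each other. Cbr1, a carbonyl reductase, was at 6.90 and 7.14 against 7.27 and 7.47. The quinone reductase Nqo1 was an exception among the higher genes: it was at 11.00 in the pool of 6 h but at 11.69 in that of 24 h, between the animals at 11.60 and 11.81.

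The thioredoxin and glutathione genes were less uniform. Txnrd1, thioredoxin reductase, was at 10.03 and 9.90 in the pools and 10.60 and 10.82 in the animals, and its other probe set had a difference of 0.98. Srxn1, which repairs overoxidised peroxiredoxins, was at 7.40 and 7.91 in the pools and 8.45 and 8.78 in the animals, again above both. Gsr, glutathione reductase, was at 4.98 and 4.72 against 5.66 and 5.31. Glutathione synthesis begins with a ligase of 2 subunits that behaved differently here. The catalytic subunit Gclc was at 9.71 in the pool of 6 h and 10.09 and 10.14 in the animals, but at 10.42 in the pool of 24 h, above both. The modifier subunit Gclm was at 11.80 and 11.21 in the pools, and read 11.25 in animal 1 but 12.18 in animal 2, below and above the pool of 6 h.

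Of 6 measured regulators 1 was above both pools in both animals and 1 below. Nfe2l2, the gene of Nrf2, was at 11.56 and 11.43 in the pools and lower in both animals, 11.00 and 10.79, a difference of -0.67 ± 0.19 (SE, n = 2 treated animals). Keap1 was at 8.10 and 8.20 in the pools and 8.33 and 8.51 in the animals, above both. Hmox1, heme oxygenase, was at 9.08 and 9.06 in the pools, 8.77 in animal 1 but 10.27 in animal 2, so only animal 2 was above the pools. Of 19 glutathione S-transferases, 9 (47.4%) were above both pools in both animals and 1 (5.26%) below, against 13.0% and 20.4% of all genes. Among them were Gsta3, at 9.36 and 9.42 in the pools against 9.90 and 9.77, and Gstt1, at 10.27 and 10.37 against 10.68 and 10.49. When each array was centred on its median, 6 of the 19 (31.6%) were above both pools, against 11.3% of all genes.

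**Figure D3:**
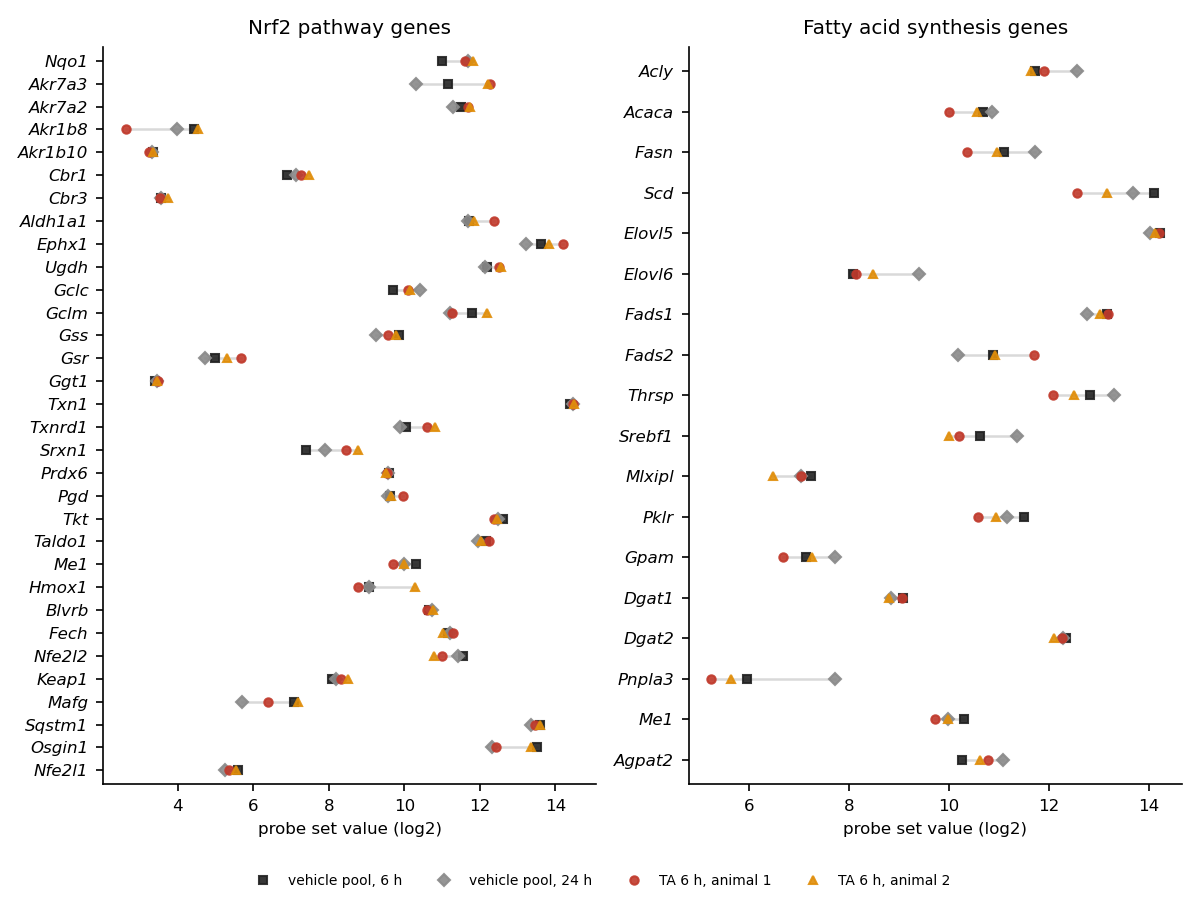
Log2 values on 4 arrays for the 32 measured Nrf2 pathway genes (left) and the 18 measured genes of fatty acid synthesis (right). Symbols stand for the 2 vehicle pools and the 2 TA animals of 6 h. Akr7a3, Txnrd1 and Srxn1 have both animals to the right of both pools, Nfe2l2, Scd, Thrsp and Srebf1 have both to the left, and Hmox1 and Gclm have the animals apart.

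Genes of fatty acid synthesis had a median of -0.30 from the pool of 6 h over 18 measured genes and -0.49 from that of 24 h. By animal the median from the pool of 6 h was -0.31 and -0.19. In both animals 8 of the 18 (44.4%) were below both pools and 1 (5.56%) above, against 20.4% and 13.0% of all genes. With quantile normalization the counts were the same, against 16.1% and 18.4% of all genes. Scd, the delta-9 desaturase, was at 14.09 and 13.67 in the pools of 6 h and 24 h and at 12.57 and 13.16 in animals 1 and 2, a difference of -1.23 ± 0.43 (SE, n = 2 treated animals; limma, adjusted p = 0.85). Srebf1, the insulin-driven regulator of the pathway, was at 10.62 and 11.36 in the pools and at 10.20 and 10.01 in the animals. Pklr, liver pyruvate kinase, was at 11.50 and 11.15 against 10.58 and 10.94, and Thrsp at 12.83 and 13.30 against 12.08 and 12.49. Fasn, fatty acid synthase, was at 11.09 and 11.71 in the pools but at 10.36 and 10.96, so animal 2 differed from the pool of 6 h by only 0.13. The exception above both pools was the desaturase Fads2, at 11.70 and 10.91 against 10.88 and 10.17.

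In the fasting and glucagon list 7 of 27 measured genes (25.9%) were above both pools and 4 (14.8%) below, against 13.0% and 20.4% of all genes. Besides Igfbp1 and Sgk1, Irs2, an insulin receptor substrate, was at 5.35 and 3.44 in the pools and 5.46 and 5.72 in the animals, close to the pool of 6 h. The amino acid catabolic gene Sds, serine dehydratase, was at 10.16 in the pool of 6 h, 9.22 and 7.96 in the animals and 6.73 in the pool of 24 h, which placed the animals between the pools. In the cholesterol list 7 of 21 genes (33.3%) were above both pools and 3 (14.3%) below. When each array was centred on its median the counts were 4 (19.0%) and 3 (14.3%), against 11.3% and 24.3% of all genes. Mvd was at 7.63 and 8.13 in the pools and 8.47 and 8.26 in the animals. In the bile acid list 5 of 18 genes (27.8%) were above both pools and 1 (5.56%) below. The gene below was Nr0b2, the repressor SHP, at 9.32 and 9.26 in the pools and 8.32 and 9.06 in the animals, and Amacr, a racemase of bile acid side-chain cleavage, was at 13.92 and 13.00 against 14.05 and 14.07.

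Of the P450 genes of families 1 to 3, 4 of 26 measured genes were above both pools in both animals and 3 below, against the 13.0% and 20.4% of all genes. Cyp2c11, the main male P450 of rat liver, was at 14.45 and 14.33 in the pools of 6 h and 24 h and at 13.99 and 14.37 in the animals, so only animal 1 was below both. Cyp3a2 was at 15.01 and 15.14 against 15.03 and 15.15. Por, the reductase that supplies P450 enzymes with electrons, was at 10.14 and 9.73 in the pools and lower in both animals, 9.39 and 9.67. Cyp1a1, which answers to the aryl hydrocarbon receptor, was near the floor in all 6 arrays and was not kept.

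Protein quality control genes had a high share of members below both pools, at small sizes. Of 29 heat shock proteins and co-chaperones, 13 (44.8%) were below both pools and 0 above, against 20.4% and 13.0% of all genes. For Hsph1, a co-chaperone of Hsp70, the pools were at 8.47 and 9.63 and the animals at 8.09 and 8.19. Fkbp4, an Hsp90 co-chaperone, was at 10.27 and 11.20 against 10.22 and 10.14, within 0.13 of the pool of 6 h. The list median was -0.05 from the pool of 6 h and -0.22 from that of 24 h, so most of the distance was to the later pool. With quantile normalization 10 (34.5%) were below both pools and 1 (3.45%) above, against 16.1% and 18.4% of all genes. The median from the pool of 6 h was then 0.00. The inducible chaperone Hspa1a, itself often listed as a danger signal, was near the floor at 3.44 and 3.63 in the pools and 3.45 and 3.46 in the animals.

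Among genes of endoplasmic reticulum stress and Atf4, 11 of 41 (26.8%) were below both pools and 4 (9.76%) above, against 20.4% and 13.0% of all genes. Below were, among others, the chaperone Hspa5, at 14.11 and 14.58 in the pools against 13.96 and 13.84, and Creld2, at 10.70 and 12.10 against 10.32 and 10.01. Of the 4 above, Asns, asparagine synthetase, was at 6.38 and 6.89 in the pools and 7.59 and 7.21 in the animals, and Psat1, of serine synthesis, at 7.96 and 7.95 against 8.64 and 8.31. These examples were chosen after their values were seen.

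Subunits of the respiratory chain and ATP synthase had 31 of 63 genes (49.2%) below both pools and 0 above, with a median of -0.09. Over all genes the shares were 20.4% below and 13.0% above, or 16.1% and 18.4% with quantile normalization. Sdha, a subunit of succinate dehydrogenase, was at 13.35 and 13.27 in the pools and 13.11 and 13.14 in the animals, and Ndufv2, of complex I, at 12.79 and 12.68 against 12.58 and 12.50. With quantile normalization 21 of the 63 (33.3%) were below and 8 (12.7%) above, and the median was -0.02. Proteasome subunits had 17 of 37 (45.9%) below and 3 (8.11%) above. With quantile normalization 5 (13.5%) were below, under the share of all genes, and 3 (8.11%) above. The median then turned from -0.05 to 0.02. Cell cycle genes had a median of 0.09 from the pool of 6 h and -0.35 from that of 24 h, so the sign depended on the pool.

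**Figure D4:**
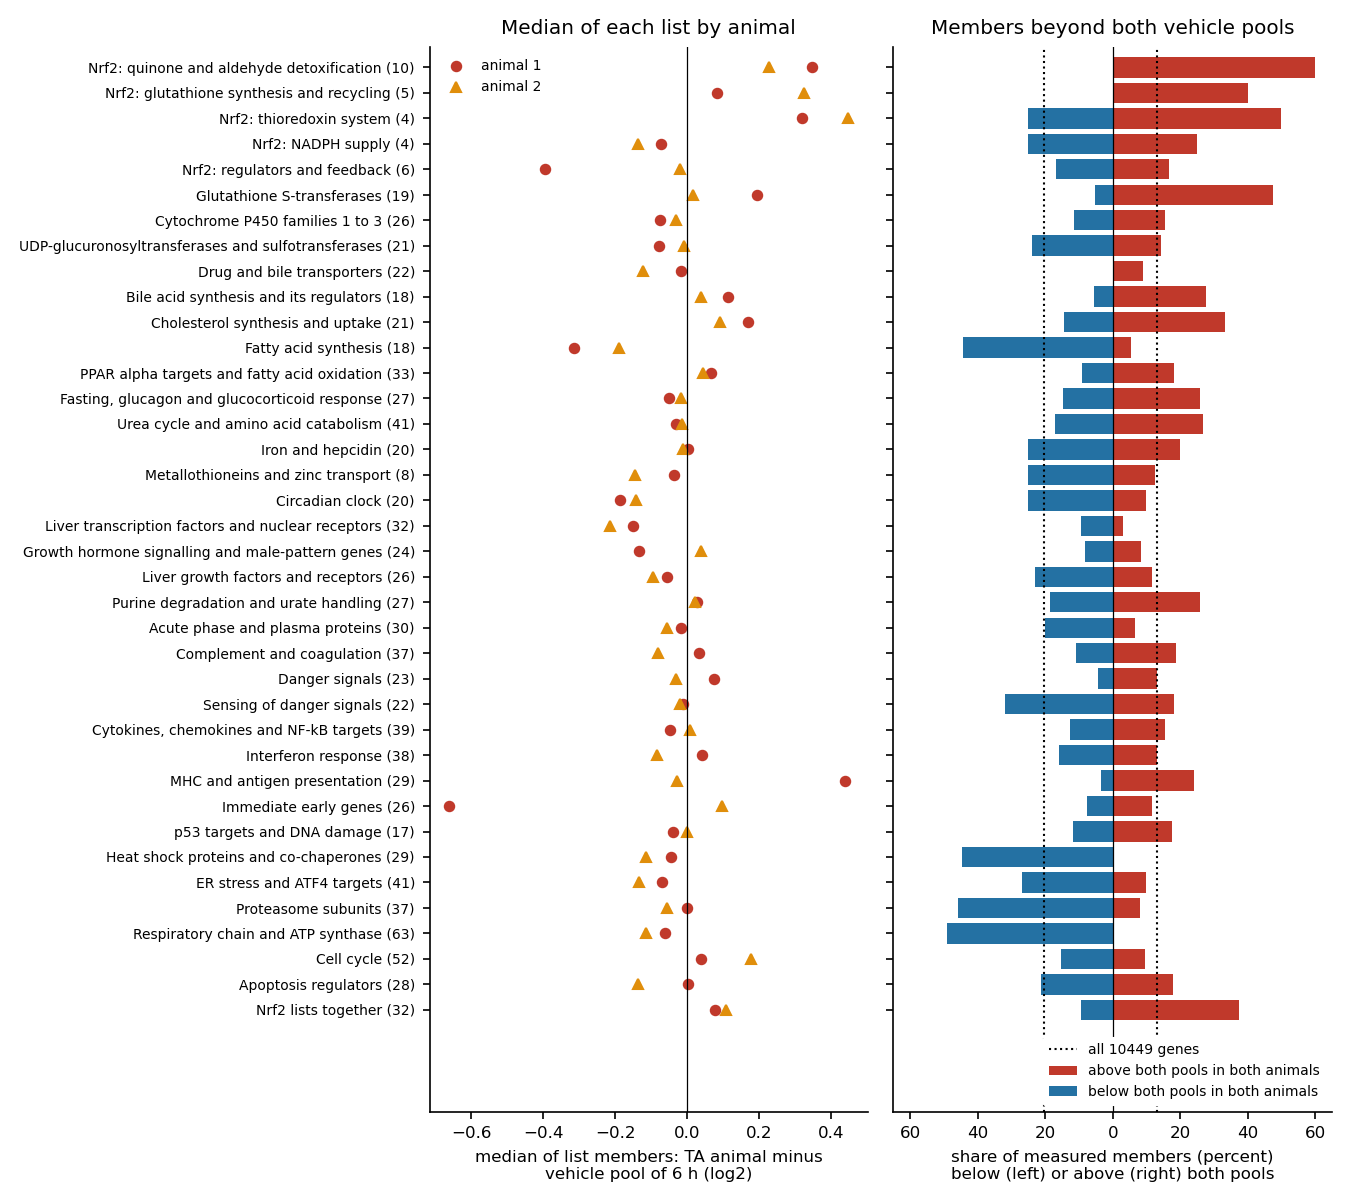
Left, the median log2 difference of each gene list from the vehicle pool of 6 h in TA animals 1 (circles) and 2 (triangles), for pathway lists of at least 4 measured genes, whose number is in parentheses. Right, the share of members above (right) and below (left) both vehicle pools in both animals, in percent, with dotted lines at 13.0% and 20.4% for all genes. The largest shares above belong to quinone and aldehyde detoxification and the largest below to the respiratory chain, proteasome, heat shock and fatty acid synthesis lists, and among the lists drawn the animals are farthest apart in immediate early and antigen presentation genes.

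The danger signal list, the subject of the title, had 3 of 23 measured members above both pools in both animals and 1 below, shares of 13.0% and 4.35%, against 13.0% and 20.4% of all genes. Hmgb1, a nuclear protein that dying cells release, was at 10.36 and 9.87 in the pools of 6 h and 24 h and at 10.44 and 10.13 in animals 1 and 2, with the pool of 6 h between them. The neutrophil alarmins S100a8 and S100a9 were low: S100a8 was between 3.76 and 3.90 on the 4 arrays, and S100a9 was at 3.93 and 5.37 in the pools and 4.08 and 5.03 in the animals, between them. These values are transcript levels and do not measure release of protein from cells.

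Genes that sense danger signals had 4 of 22 above both pools (18.2%) and 7 below (31.8%), against 13.0% and 20.4% of all genes. The receptor Tlr2 was at 4.09 and 4.35 in the pools and 4.56 and 4.66 in the animals, and Cd14, a co-receptor for lipopolysaccharide, at 10.65 and 10.64 against 10.95 and 10.90. The adaptor Myd88 and the kinase Irak2 lay below: Myd88 was at 8.97 and 8.35 against 8.16 and 8.32, and Irak2 at 6.01 and 5.60 against 5.52 and 5.42. Of 39 cytokines, chemokines and targets of NF-kB, 6 were above both pools (15.4%) and 5 below (12.8%), with a share above near the 13.0% of all genes. Among those above, Il1b, interleukin 1 beta, was at 5.20 and 5.48 in the pools and 6.01 and 5.64 in the animals, and Nfkbiz at 6.63 and 6.98 against 7.19 and 7.29. Tlr4, Il6 and Tnf were not kept by the filter on low values. Of 30 acute phase and plasma proteins 2 were above both pools (6.67%) and 6 below (20.0%), or 6 and 5 with quantile normalization. Among those below was Orm1, alpha-1-acid glycoprotein, at 13.29 and 13.34 in the pools against 12.72 and 12.32.

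The treated animals differed from each other in blocks of genes with known common inputs. In the immediate early list, 9 of 26 measured genes were at least 2-fold higher in animal 2 than in animal 1 and 0 the other way, with a median of animal 1 minus animal 2 of -0.70, where over all genes 0.957% were 2-fold apart in each direction and the median was -0.00. Jun, a subunit of the AP-1 factor, read 10.00 in the pool of 6 h, 8.04 in animal 1 and 10.50 in animal 2, and at 8.20 in the pool of 24 h. The phosphatase Dusp1 was at 11.03, 8.95 and 11.37, and at 9.20 in the pool of 24 h. Gadd45g, a stress-inducible gene, was at 10.21, 6.80 and 10.38, and at 7.06. In these 3 genes animal 2 was with the pool of 6 h and animal 1 with that of 24 h, whereas Myc, at 6.50, 5.48 and 7.60 and at 5.44, had animal 2 above both pools.

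Cish and Bcl6, targets of growth hormone, were far apart in the animals. Growth hormone reaches rat liver in pulses and acts through the transcription factor Stat5. Cish, the feedback inhibitor of Stat5 signalling, was at 9.01 in the pool of 6 h, 3.67 in animal 1, 9.42 in animal 2 and 3.80 in the pool of 24 h, and its other probe set at 4.49, 2.17, 4.15 and 2.18. Bcl6, a repressor that counters Stat5 at shared sites, was opposite, at 7.37, 10.46, 7.36 and 10.97. Socs2, another feedback inhibitor, did not follow Cish: it was at 9.16 in the pool of 6 h, 8.06 and 7.96 in the animals and 6.13 in the pool of 24 h. In the 250 bases before its start Cish held 4 matches to the core of the Stat5 site, TTCNNNGAA, which reads the same on the other strand. Such a core was in 7.67% of 33469 promoters counted singly. It was in any promoter of 5 of 26 listed growth hormone genes with a sequence, a unit not directly comparable. The stretch is printed for the density of matches, in capitals, from RefSeq on build GRCr8 at chr8:116850719-116850968, plus strand, 5′ to 3′.
Cish: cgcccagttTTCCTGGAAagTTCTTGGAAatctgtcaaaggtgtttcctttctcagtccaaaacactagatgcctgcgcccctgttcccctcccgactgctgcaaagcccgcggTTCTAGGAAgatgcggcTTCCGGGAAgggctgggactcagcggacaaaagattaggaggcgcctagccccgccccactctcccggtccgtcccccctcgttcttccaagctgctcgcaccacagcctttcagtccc
The matches began 241, 230, 136 and 119 bases before the start.

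Genes of antigen presentation were higher in animal 1. Of 29 measured members 27 were above animal 2, 6 of them by 2-fold, with a median of 0.37, against 5159 of 10449 genes over all. RT1-Ba, of class II, read 10.13 in the pool of 6 h, 12.91 in animal 1, 10.13 in animal 2 and 9.18 in the pool of 24 h, but its other probe set, at 8.43, 8.78, 8.46 and 8.48, was nearly level. RT1-Da, at 11.08, 12.44, 10.84 and 10.73, and the invariant chain Cd74, at 10.84, 12.00, 10.45 and 10.08, had the same order of animals. The exception by 2-fold was RT1-CE16, a class I gene of a family with near-identical members, at 5.15 in the pool of 6 h, 6.32 in animal 1 and 8.31 in animal 2.

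Markers of other liver cell types differed between the animals by type. All 7 measured markers of Kupffer cells and macrophages were higher in animal 1 than in animal 2, and their mean value was 8.93 in the pool of 6 h, 9.34 in animal 1, 9.03 in animal 2 and 8.82 in the pool of 24 h. The 7 genes of stellate cells and fibroblasts on the array had means of 7.18, 7.65, 7.07 and 6.98. Des and Rgs5, which the filter did not keep, are included in these means. Of 4 markers of sinusoidal endothelium 3 were higher in animal 1, but Lyve1 was at 11.51 in animal 1 and 11.67 in animal 2, and the sum of the linear values was 5342 and 5466. Both measured neutrophil markers were lower in animal 1, with a median of animal 1 minus animal 2 of -0.50, and 1 of 2 NK cell markers was higher. All 4 hepatocyte markers were also higher in animal 1, with a median of 0.07. T cell markers were near the floor on the 4 arrays, with means between 2.80 and 2.89. In whole liver a change in the number of such cells and a change in their RNA cannot be told apart. Animal 1 also had the widest gap between 3′ and 5′ signal for GAPDH, a check of RNA integrity, 2.26 against 1.82 to 2.04 on the 5 other arrays, while for actin it had 4.31, inside the others' 4.17 to 4.36. The part of cell makeup and RNA quality in the contrast between the animals was not tested. The animals were also in different inferred fluidics runs, so animal and run cannot be told apart.

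Some single genes were far off in 1 animal. Fam111a, a protease gene linked to viral host range, was at 11.12 in the pool of 6 h, 3.78 in animal 1, 10.62 in animal 2 and 10.23 in the pool of 24 h. Cdh17, liver-intestine cadherin, was at 7.14, 7.57, 2.89 and 6.61, so animal 2 was the low one. A1bg, a plasma protein gene of female-pattern expression in rat liver, was at 3.13, 6.85, 3.38 and 3.00, with animal 1 alone above the low part of the scale. The sterol half-transporters Abcg5 and Abcg8, which work as a pair, were both highest in animal 1: Abcg5 was at 7.26, 8.45, 6.24 and 5.09 and Abcg8 at 3.67, 5.64, 3.09 and 2.62.

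**Figure D5:**
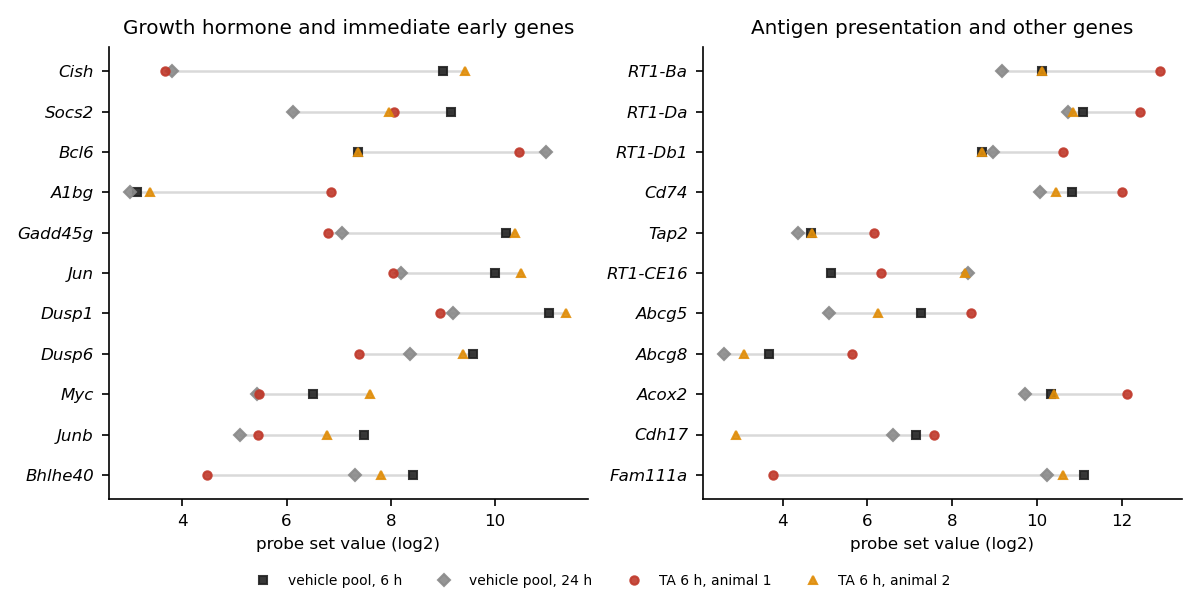
Log2 values on 4 arrays for genes that differed between the TA animals of 6 h, chosen for that difference apart from Socs2. For Cish, Gadd45g, Jun and Dusp1 the triangle (animal 2) lies near the square (vehicle pool of 6 h) and the circle (animal 1) near the diamond (vehicle pool of 24 h), and for RT1-Ba, RT1-Da, Cd74 and A1bg animal 1 alone lies to the right.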

How the data were processed

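Per the submitters' processing notes, the authors used R 2.0.1 with affy 1.5.8, and RMA and GCRMA are named; the sources used here do not say which of them made the deposited log2 values. These crowd near a floor of 2 to 3, where differences are compressed. The instrument settings gave hybridisation times, from which the fluidics runs were inferred. No scanner intensities were used here.

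Of 31099 probe sets, 57 controls were dropped. GEO's platform annotation can be out of date and gave 1 symbol for 20826, several for 436 (not named) and none for 9780; 20758 matched the reference table by gene identifier and 0 symbols changed. Probe sets with a mean over the 6 arrays above the 40th percentile (2.82) were kept (18625), and each of 10449 genes was read on its probe set of highest mean, so a gene missing from a list count was below the filter or had no probe set of its own symbol.

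One mean per group was fitted to all 6 arrays with limma 3.58.1 in R 4.3.3 (lmFit, eBayes, 2 residual and 1.60 prior degrees of freedom), two-sided, with Benjamini-Hochberg adjustment, called under 0.05. A vehicle pool has no replicate, and the error assumes that it varies like a treated animal. On simulated arrays with 18625 probe sets, 0 of 50 changes of 1, 23 of 50 of 2, 29 of 50 of 3 and 41 of 50 of 4 (log2) at 6 h were recovered, and 3 unchanged probe sets were called. Counts by size and lists are descriptions with no test.

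Genes were named by a rule: up to 12 each way by the smaller difference of both animals from the pool of 6 h (at least 2-fold), 12 each way by the smallest difference from both pools (at least 1.5-fold), 8 each way by the difference between the animals, the leading members of each list, and a set looked up in any case. Of that set Cyp1a1, Tlr4, Il6 and Tnf were below the filter, and Gapdh and Actb had no probe set of their own symbol. Other list members, the other genes beyond both pools and the motifs were chosen after their values were seen. Members and lists were chosen with earlier results of these data known. After results were seen, 3 coagulation factor genes with no probe set were taken out of the complement and coagulation list only because an automated check of printed numbers read the digits in their symbols; none of its measured values moved. Alternatives covered the filter, scaling, variance moderation, control group, replicate block, summary of probe sets and leaving out arrays; the fluidics run, pairings without a shared array and scaling of list counts were added after seeing the data.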

Additional observations from a re-analysis of the deposited data

Results flagged for a closer look

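One probe set with no gene symbol had effects of TA that differed between 6 h and 24 h by 7.21 (limma's test of the difference itself, adjusted p = 0.0418). It read 2.61 in the 6 h vehicle pool, 2.19 and 2.24 in the TA animals of 6 h, 9.84 in the vehicle pool of 24 h, and 2.22 and 2.25 in the TA animals of 24 h. Only the vehicle pool of 24 h was above the floor of the scale, and the treated animals of 6 h were within 0.42 of their own pool. Leaving out any 1 of the 4 treated arrays ended this call, with 0 probe sets called each time.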

How the results depend on the processing

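No probe set was called at 6 h under any of the alternatives but 1: against the vehicle pool of 24 h, 1 probe set was called (one with no gene symbol, which that pool alone had above the floor; limma, adjusted p = 0.00978). With the replicate block 0 were called (smallest adjusted p of 0.72, limma), and the numbers of the animals are not known to pair them across times (correlation of their deviations -0.08 over 2 pairs). Against the vehicle pool of 24 h, 120 probe sets were 2-fold higher and 156 lower in both animals, in place of 43 and 55. With 1 TA animal left out, 126 to 196 were higher and 139 to 273 lower, since only 1 animal then has to pass. Filters and scalings gave 36 to 46 higher and 38 to 61 lower. Among the 24 genes named for lying 2-fold from the pool of 6 h in both animals, the sign turned against the vehicle pool of 24 h for Cyp7a1 (-0.50), Poteml2 (-0.76), Adam23 (-0.15), Sgo1 (-0.42), Tfrc (-0.49), Onecut1 (0.80), LOC102549203 (0.30), Sqor (0.59), Atxn7l1 (0.15), Rnf39 (0.88) and Slc25a30 (1.21). It turned for other named genes too, among them Gclc (-0.30), Bcl6 (-2.06), Sds (1.86), Socs2 (1.88), Hhex (0.48), Dbp (3.23), Cish (2.75), Gadd45g (1.53) and RT1-CE16 (-1.07). The counts of genes 1.5-fold beyond both pools were 22 to 30 above and 28 to 33 below over the filter and scaling alternatives. Arrays give no counting depth, and near the floor a difference is compressed.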

Other observations

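Liver transcription factors were on the lower side of the vehicle pool of 6 h more often than genes over all: 19 of 32 measured were below it in both animals and 8 above, against 38.4% and 22.9% of 10449 genes. Against both pools only 3 were below (9.38%) and 1 above (3.12%), under the 20.4% and 13.0% of all genes. Onecut1, a hepatocyte and biliary factor, was at 11.78 in the pool of 6 h, 8.60 and 9.81 in the animals and 8.40 in the pool of 24 h, and its other probe set had a difference of -2.89 from the pool of 6 h. Hhex, a homeobox factor of liver development, was at 12.00, 10.39 and 11.38, and at 10.41 in the pool of 24 h, so the pool of 6 h was the highest of these 4 arrays for both genes. Tbx3 had the opposite order, at 3.60, 5.09 and 4.22, and at 4.25 in the pool of 24 h.

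Genes of purine degradation and urate handling had 7 of 27 members above both pools in both animals (25.9%) and 5 below (18.5%), against 13.0% and 20.4% of all genes. Ada, adenosine deaminase, was at 5.55 and 6.53 in the pools of 6 h and 24 h and at 6.71 and 6.75 in the animals. The urate transporter Slc2a9 was at 7.66 and 7.59 against 7.78 and 8.22, and the anion transporter Slc17a3 at 10.86 and 10.71 against 11.35 and 11.07. Drug and bile transporters had 2 of 22 above both pools (9.09%, under the share of all genes) and 0 below, namely Abcc1 and the carnitine transporter Slc22a5. With quantile normalization 4 were above (18.2%), against 18.4% of all genes.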
